A study of Canis lupus familiaris with 124 samples.

Results

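Cell lines derived from canine prostate adenocarcinoma (PAC) were compared with PAC tissues by RNA sequencing. The comparison took every sample of the series that was labelled as a PAC line or a PAC tissue, which were 8 of its 17 lines and tissues, in 17 of its 31 libraries. The 5 lines were Adcarc0846, Adcarc1508 and Adcarc1511.1, derived from primary tumours, and Metadcarc1511.2 and Metadcarc1511.3, derived from lymph node metastases. The 3 tissues were the primary tumour P2 and the lymph node metastases Ln4.2 and Ln4.3. The other 9 samples of the series, from transitional cell carcinoma, were not used here.

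Lines and tissues shared animals. Dog 2, a male German Rough-haired Pointer of 6 years, gave Adcarc0846 and P2. Dog 4, a neutered male Dobermann of 6 years, gave Adcarc1511.1, Metadcarc1511.2 and Metadcarc1511.3, and the metastases Ln4.2 and Ln4.3 from which the latter pair of lines was derived. Dog 3, a neutered male of mixed breed and 11 years, gave Adcarc1508 and had no tissue among these samples, so its line is described by its levels and did not inform the fold changes. The 3 lines of dog 4 come from 1 animal and are not replicates of different patients. The labels name no treatment, and the lines grew in Medium 199 with 10% fetal calf serum. The sequenced lines had been passaged many times: Adcarc0846 was at passages 447 to 448, Adcarc1508 at 97 to 106, Adcarc1511.1 at 88 to 95, Metadcarc1511.2 at 68 to 79 and Metadcarc1511.3 at 79 to 87. A line had 2 or 3 libraries and a tissue had 1, and all libraries of a sample were summed.

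A carcinoma in the body is a mixture. Its malignant epithelial cells stand on laminin-rich basement membrane and are surrounded by fibroblasts that lay down collagen, by blood vessels and by leukocytes, and RNA from a piece of tumour holds all of these. A carcinoma line is meant to hold the epithelial cells alone, grown on plastic and in serum. In bulk RNA, fewer cells of a type and less RNA per cell cannot be told apart.

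The lines held 38015308 to 55488815 counts each and the tissues 13979228 to 14840678. Of the genes listed, 13002 to 14029 reached 10 counts in a line and 14386 to 14650 did so in a tissue, although the tissues were sequenced less deeply. The number of genes with a TPM, the level per transcript length, of 1 or more was 11930 to 12294 in the lines and 14051 to 14707 in the tissues. The Pearson correlation of log2(CPM + 1) across the tested genes, a description in which genes are not independent, was 0.918 to 0.984 between lines. Between a line and a tissue it was 0.564 to 0.763, and P2 was the tissue least like the lines, at 0.564 to 0.583. RNA of the lines was extracted with another kit than RNA of the tissues, so kit and group cannot be told apart. By the sample numbers in the titles, Adcarc0846 and the tissues appear to belong to one numbered series of libraries and the other 4 lines to another, so Adcarc0846 with P2 is the pair that shares a dog and a numbered series, though not a kit.

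The comparison of lines with tissues asked which genes a carcinoma line expressed at other levels than the tumour. Counts were tested by edgeR's quasi-likelihood test with the dog as a covariate, and p-values were adjusted by the Benjamini-Hochberg method over all 14299 genes with at least 10 counts in all 3 tissues or in all 5 lines. A gene counted as called where its adjusted p did not exceed 0.01 and its level differed 2-fold or more. Levels are given as raw counts or as CPM, counts scaled to library size, always in the order Adcarc0846, Adcarc1508, Adcarc1511.1, Metadcarc1511.2 and Metadcarc1511.3 for lines and P2, Ln4.2 and Ln4.3 for tissues. Fold changes are lines over tissues on the log2 scale. The p-values rest on 4 residual degrees of freedom, which come mostly from the samples of dog 4, and they measure the spread between these samples rather than between patients.

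Genes that were lower in the lines outnumbered genes that were higher. Of the 14299 genes, 2363 (16.5%) were called. They divide into 1906 genes (13.3%) that were lower in the lines and 457 (3.2%) that were higher, while the median over all tested genes was -0.04. The genes that were lower were also changed more. Their median log2 fold change was -7.58, and 1360 of them were beyond 32-fold, against a median of 1.55 and 15 genes beyond 32-fold for those that were higher. Of the genes called lower, 573 had at most 3 counts over all lines, so the size of their fold changes is poorly determined. The lower depth of the tissues also limits the fold changes that genes absent from them can show. The groups did not overlap for 1874 of the genes called lower and 416 of those called higher. Many of the former were close to silent in culture: 793 genes had at least 10 counts in every tissue and at most 3 in every line, and 734 of these were called. The opposite, at least 10 counts in every line and at most 3 in every tissue, was found for 42 genes, of which 6 were called. Without regard to the test, all 5 lines lay below all 3 tissues for 3479 genes (24.3%) and above them for 2546 (17.8%). Gene symbols were at hand for 1050 of the tested genes, of which 179 (17%) were called lower and 33 (3.14%) higher, so the named genes and lists cover a small part of the calls. A source of the symbols was a supplementary table drawn from the study's own data, so these genes are not a random sample.

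**Figure D1:**
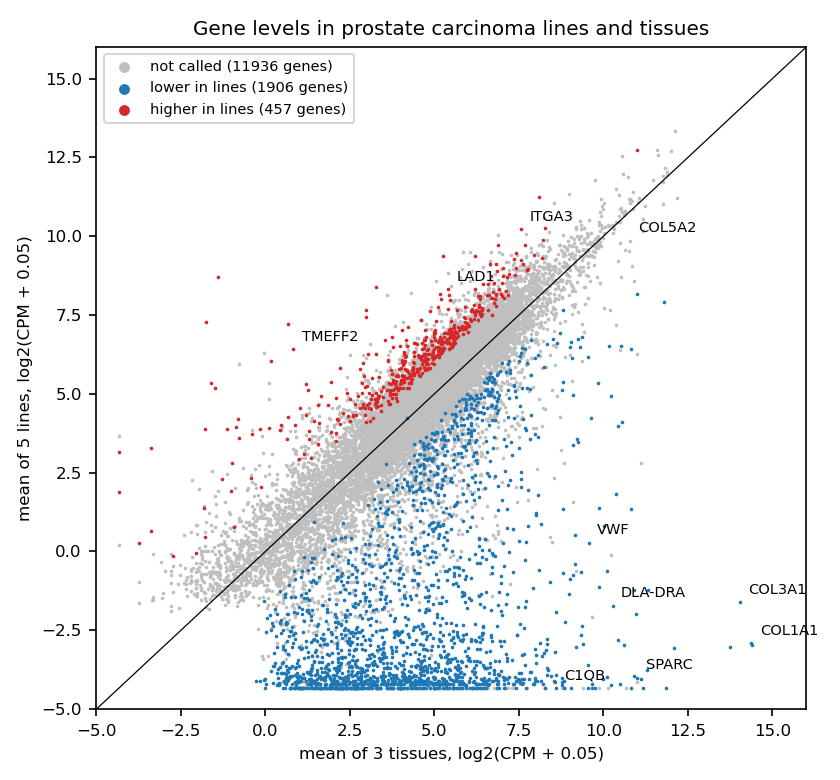
Mean level of each of the 14299 tested genes in the 3 tissues (x axis) and in the 5 lines (y axis), both as log2(CPM + 0.05), with 1906 genes called lower in the lines in blue, 457 called higher in red and the rest in grey; the diagonal marks equal levels. The blue genes reach down to the floor of the lines at all levels in the tissues, whereas most red genes lie in a band just above the diagonal.

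The number of calls depended on single samples of dog 4. It fell to 1578 without Adcarc1511.1, 1280 without Metadcarc1511.2, 1285 without Metadcarc1511.3, 1139 without Ln4.2 and 1525 without Ln4.3. In the same order of samples left out, the number called lower fell from 1906 to 1323, 1188, 1169, 1090 and 1420. The number called higher fell from 457 to 255, 92, 116, 49 and 105. When the samples of a dog were summed by type, the number called higher was 15. That fit had no term for the dog, so Adcarc1508 also informed its fold changes. DESeq2 called 4280 genes, 1320 of them higher. Of the 62 called genes given here with a p-value, 24 kept their call without any one sample. These were COL1A1, COL1A2, COL5A3, COL6A1, COL16A1, CTSK, SPARC, VWF, KDR, CD93, TEK, LAPTM5, C1QB, C1QC, CSF1R, DLA-DRA, DLA-79, LEF1, RSPO2, VRK1, TMEFF2, SH2D5, SYTL2 and TMEM176A. The other 38 kept their direction, but lost the call without at least 1 sample, with adjusted p-values of up to 0.0515. Another scaling of the libraries ended the call of LAD1, CDKN1A, ANKRD13B and NOP56. Leaving the dog out of the model ended that of LOXL2, HOOK1, GOLM1, MZT1, CDKN1A, RSPO2 and PAX9, and limma with the dog as a random effect that of TGM1, HOOK1, GOLM1, MZT1, CDKN1A, SH2D5, ANKRD13B, PAX9 and CNNM4. When the samples of a dog were summed by type, 35 of the 62 lost the call, among them COL5A3, COL6A1, DLA-DRA, VRK1, RSPO2, SH2D5 and SYTL2 of the 24 above. The others were SERPINH1, LOXL2, LAMA3, ACTA2, CD74, OSMR, STAT3, LAD1, TGM1, HOOK1, GOLM1, ITGA3, MZT1, HAUS2, HAUS5, CEP135, BBS10, TCTN1, SELENOI, VEGFA, CDKN1A, TCF7, NOP56, CSTF2, ANKRD13B, PAX9, CNNM4 and LGALS3.

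Fibrillar collagens, the rods from which tendon, bone and the stroma of tumours are built, were among the most abundant transcripts of the tissues and, apart from COL5A2, nearly absent from the lines. Of 6 tested members, 5 were called lower (83.3%, against 13.3% of all tested genes) and 0 higher. The median log2 fold change of the 6 was -12.82 (-12.65 with genes of at most 3 counts over the lines set to their bound). COL1A1, which encodes the main chain of type I collagen, had 2, 8, 4, 1 and 7 counts in the lines and 503288, 293478 and 48370 counts in the tissues (log2 fold change -17.78 ± 1.33 SE, adjusted p = 0.000491). Its partner chain COL1A2 had 5, 2, 4, 2 and 4 counts in the lines against 329371, 182917 and 31832 in the tissues (log2 fold change -17.03 ± 1.05 SE, adjusted p = 0.000341). COL3A1, the chain of type III collagen, had 8, 6, 0, 0 and 58 counts in the lines against 349418, 285084 and 34933 in the tissues (log2 fold change -15.49 ± 2.39 SE, adjusted p = 0.00467), and its adjusted p was 0.0198 without Ln4.2. Every line held less of these chains than every tissue, and the order of the tissues was the same for each of them, with P2 highest and Ln4.3 lowest.

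COL5A2 stood apart from the other fibrillar collagens. This chain of type V collagen, which nucleates the thin fibrils inside type I collagen, was at 669.9, 331, 1498, 1375 and 748 CPM in the lines and at 2442, 2380 and 489 CPM in the tissues (log2 fold change -0.72 ± 0.66 SE, adjusted p = 0.428). All lines were below P2 and Ln4.2, and 4 of the 5 were above Ln4.3. COL5A3, another chain of type V collagen, was at 24, 2, 2, 3 and 2 counts in the lines and 5869, 1126 and 282 in the tissues (log2 fold change -9.82 ± 0.67 SE, adjusted p = 0.000405). Summed over the 7 fibrillar collagens with an identifier, the level per length was 145, 75.7, 294, 289.6 and 164 TPM in the lines and 29711, 18228 and 2129 TPM in the tissues.

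Type VI collagen, which forms beaded microfilaments around cells, and other interstitial collagens were also lower, in 6 of 7 tested members (median -11.99). This is 85.7%, against 13.3% of all tested genes. COL6A1 had 66, 3, 3, 4 and 2 counts in the lines and 53271, 38879 and 9998 in the tissues (log2 fold change -13.60 ± 1.19 SE, adjusted p = 0.000669). COL6A2 had 1 count over all 5 lines, in Adcarc1511.1, and 29065, 22460 and 5615 counts in the tissues, 361000-fold lower, with a 95% counting interval from 64900 to 14300000 (adjusted p = 0.000352, and 0.0102 without Adcarc1511.1). COL16A1 was at 4, 19, 0, 0 and 4 counts in the lines and 5920, 6193 and 916 in the tissues (log2 fold change -12.74 ± 1.23 SE, adjusted p = 0.000895). The member that was not called, COL10A1, a collagen of hypertrophic cartilage, had a positive value of 3.86 ± 1.43 (adjusted p = 0.0824). It was at 0.972, 0.552, 12.1, 52.7 and 5.24 CPM in the lines and 0.621, 0.80 and 0.685 CPM in the tissues. The lines of dog 4 were far above every tissue, Adcarc0846 was slightly above them and Adcarc1508 was below them.

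Of 13 tested genes that fold, trim, crosslink or degrade collagen, 5 were called lower (38.5%, against 13.3% of all tested genes) and 0 higher. The other 8 were not called, and the median was -1.77. SERPINH1, the chaperone of procollagen, was at 91.7, 116, 94.4, 84.7 and 63.9 CPM in the lines and 1212, 477 and 220.1 CPM in the tissues (log2 fold change -2.58 ± 0.46 SE, adjusted p = 0.00746; 0.0472 without Ln4.2). PCOLCE, which enhances the removal of the C-terminal propeptide, was at 1.27, 2.5, 2.59, 3.11 and 3.1 CPM against 934, 309.9 and 84.4 CPM (log2 fold change -6.99 ± 0.92 SE, adjusted p = 0.00274; 0.0165 without Ln4.2). The lines kept measurable levels of both genes, below every tissue.

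LOXL2, a crosslinking oxidase, was at 30.5, 27.6, 0.481, 2.0 and 0.883 CPM in the lines and 355, 328 and 117 CPM in the tissues (log2 fold change -6.66 ± 1.13 SE, adjusted p = 0.00662; 0.027 without Metadcarc1511.3), and Adcarc0846 and Adcarc1508 held more of it than the lines of dog 4. CTSK, a protease that degrades collagen, was at 2.69, 2.26, 2.07, 1.69 and 2.24 CPM against 383, 235 and 149 CPM (log2 fold change -6.75 ± 0.30 SE, adjusted p = 0.000181). P4HB, the disulfide isomerase that is also a subunit of prolyl hydroxylase and serves many secreted proteins, was at 1589, 1177, 1065, 1159 and 1106 CPM and 991, 922 and 1059 CPM (log2 fold change 0.31 ± 0.22 SE, adjusted p = 0.306). Its groups did not overlap, but the difference was small and was not called.

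Of 22 tested matrix proteins and proteoglycans, 14 were called lower (63.6%, against 13.3% of all tested genes) and 0 higher (median -9.05). In 20 of them all lines were below all tissues, against 24.3% of all tested genes. SPARC, a collagen-binding protein of remodelling matrix, had 3 counts over all 5 lines and 46235, 28317 and 7563 counts in the tissues, 174000-fold lower, with a 95% counting interval from 59500 to 843000 (adjusted p = 0.000297). MMP2, a gelatinase made largely by stromal cells, had 0, 3, 1, 0 and 0 counts in the lines and 28667, 12035 and 2541 in the tissues (log2 fold change -16.55 ± 1.17 SE, adjusted p = 0.00042; 0.0124 without Adcarc1511.1). The small proteoglycan DCN had 2 counts over the lines and 44604, 35128 and 1136 in the tissues, 258000-fold lower, with a 95% counting interval from 71300 to 2130000. EFEMP1, a fibulin, was at 0 counts in every line and at 15974, 20484 and 1006 in the tissues, which put the lines at least 12500-fold lower when set to 3 counts per sample. Neither was called, at adjusted p-values of 0.0177 for DCN and 0.0156 for EFEMP1. Both were called by DESeq2, by limma, without the dog in the model, in sums per dog and type, without Ln4.2 (adjusted p = 0.00792 and 0.00734) and without Ln4.3 (0.00465 and 0.00464). Both were far lower in Ln4.3 than in the other metastasis.

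The fibulins FBLN1 and FBLN2, which bind elastic fibres and basement membrane, were lower in the lines but not silent. FBLN1 was at 13, 28.8, 16.6, 11 and 24.4 CPM in the lines and 1105, 1180 and 94.5 CPM in the tissues (log2 fold change -5.55 ± 0.93 SE, adjusted p = 0.00625; 0.0515 without Ln4.2). FBLN2 was at 2.24, 0.341, 3.75, 3.58 and 2.73 CPM in the lines and 1625, 1087 and 94.2 CPM in the tissues (log2 fold change -8.04 ± 1.04 SE, adjusted p = 0.00255; 0.0176 without Ln4.2). For both genes, Ln4.3 was far below the other tissues.

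Of 6 basement membrane genes, 1 was called higher (16.7%, against 3.2% of all tested genes) and 0 lower (median -1.65). LAMA3, a chain of the laminin to which epithelial hemidesmosomes attach, was higher, at 377, 329, 632, 685 and 377 CPM in the lines and 92, 114 and 139.9 CPM in the tissues (log2 fold change 2.12 ± 0.29 SE, adjusted p = 0.0029; 0.0209 without Ln4.2). LAMB1, a chain of the more widespread laminins, was at 402, 429, 576, 637 and 660.1 CPM and 982, 872 and 654 CPM (log2 fold change -0.58 ± 0.28 SE, adjusted p = 0.153), and the groups overlapped. COL4A1, the network collagen of basement membranes, was at 0.0249, 56.4, 117, 126 and 87.5 CPM in the lines and 3772, 1682 and 692 CPM in the tissues. All lines were below all tissues, but Adcarc0846 held 1 count of this gene while the other lines held 3471 to 6398, and the difference was not called over all samples (-4.84 ± 2.06, adjusted p = 0.118). Without Adcarc0846 it was called, at a log2 fold change of -3.44.

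Most markers of the cells that surround a carcinoma were low in the lines, with FLNC, FLT4 and GJA5 as exceptions. Of 8 tested fibroblast and smooth muscle markers, 6 were called lower (75%, against 13.3% of all tested genes) and 0 higher. The median of the 8 was -13.76, or -13.38 with genes of at most 3 counts over the lines set to their bound. Their summed level was 0.473, 7.47, 9.86, 273 and 131 CPM in the lines and 97253, 58466 and 8355 CPM in the tissues, and COL1A1, COL1A2 and COL3A1 made up most of the sum in the tissues. ACTA2, the actin of smooth muscle and activated fibroblasts, was at 0.0498, 0.0812, 1.63, 0.649 and 0.432 CPM in the lines and 949, 303 and 99.6 CPM in the tissues (log2 fold change -8.98 ± 1.43 SE, adjusted p = 0.00531; 0.0236 without Ln4.2). Nearly all of the sum in Metadcarc1511.2 and Metadcarc1511.3 was FLNC, a filamin of muscle. FLNC was at 0.0498, 5.41, 7.87, 272 and 129 CPM in the lines and 181, 125 and 24.1 CPM in the tissues, where it overlapped and was not called (-0.54 ± 2.62, adjusted p = 0.888). Adcarc0846 held 2 counts of it, and the fold change turned to 0.86 without that line.

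Of 10 endothelial markers, 8 were called lower (80%, against 13.3% of all tested genes) and 0 higher (median -11.18, or -9.70 with bounds). VWF, the clotting factor stored in endothelial cells, was at 0.996, 3.02, 0.398, 0.452 and 0.959 CPM in the lines and 1304, 689 and 277 CPM in the tissues (log2 fold change -9.85 ± 0.62 SE, adjusted p = 0.000351). The receptor KDR, through which VEGF acts on vessels, had 5, 0, 3, 1 and 1 counts against 2930, 1654 and 1135 (log2 fold change -11.18 ± 0.46 SE, adjusted p = 0.00018). The angiopoietin receptor TEK had 3, 7, 4, 12 and 2 counts against 1772, 1089 and 542 (log2 fold change -9.37 ± 0.78 SE, adjusted p = 0.000583). The lectin-like receptor CD93 had 0, 2, 0, 3 and 0 counts against 2385, 1782 and 541 (log2 fold change -12.41 ± 1.08 SE, adjusted p = 0.000655). For these genes P2 was the highest tissue and Ln4.3 the lowest.

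FLT4 and GJA5 were the endothelial markers that were not called. FLT4, the receptor of lymphatic endothelium, was at 28.8, 25.8, 40.5, 83.4 and 68.8 CPM in the lines and 38.9, 75.7 and 110.1 CPM in the tissues (log2 fold change -0.50 ± 0.29 SE, adjusted p = 0.224), and the groups overlapped. The connexin GJA5 was at 0.0249, 0.925, 9.63, 10.9 and 8.82 CPM in the lines and 48.6, 7.2 and 6.51 CPM in the tissues (log2 fold change -0.92 ± 1.98 SE, adjusted p = 0.745). It had 1 count in Adcarc0846, while the lines of dog 4 were above the metastases.

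Leukocyte markers were lower throughout. Of 28 tested, 24 were called lower (85.7%, against 13.3% of all tested genes) and 0 higher (median -10.91, or -8.55 with bounds). In all 28 every line was below every tissue, against 24.3% of all tested genes. Their sum over 29 genes was 16.5, 1.77, 8.94, 4.21 and 6.88 CPM in the lines and 4022, 1385 and 3018 CPM in the tissues, and 6 of the 29 (C1QB, TYROBP, SPI1, TREM2, ALOX5AP and GIMAP1) had no count in any line. C1QB, a subunit of the complement protein that macrophages make, was at 0 counts in all lines and at 8376, 2310 and 4972 in the tissues, which put the lines at least 5170-fold lower when set to 3 counts per sample (adjusted p = 0.0016). C1QC, another subunit, had 1 count over the lines and 8603, 2794 and 6425 in the tissues, 111000-fold lower, with a 95% counting interval from 19900 to 4380000 (adjusted p = 0.00183). CSF1R, the receptor on which macrophages depend for growth, had 2 counts over the lines and 4927, 1534 and 3703 in the tissues, 31600-fold lower, with a 95% counting interval from 8750 to 261000 (adjusted p = 0.000351). Ln4.2 held the least of these macrophage genes, although it was a lymph node metastasis like Ln4.3.

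LAPTM5, a lysosomal protein of blood cells, had 0, 9, 0, 5 and 16 counts in the lines and 10620, 4503 and 11492 in the tissues (log2 fold change -12.62 ± 1.37 SE, adjusted p = 0.00132). The integrin chain ITGB2, carried by nearly all leukocytes, was at 15.4, 0.0162, 4.1, 0.865 and 0.132 CPM in the lines and 208, 110.4 and 193 CPM in the tissues, and was not called (-5.76 ± 1.23, adjusted p = 0.0147). ITGB2 was called by DESeq2 and by limma. Adcarc0846 held more of it than the other lines.

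**Figure D2:**
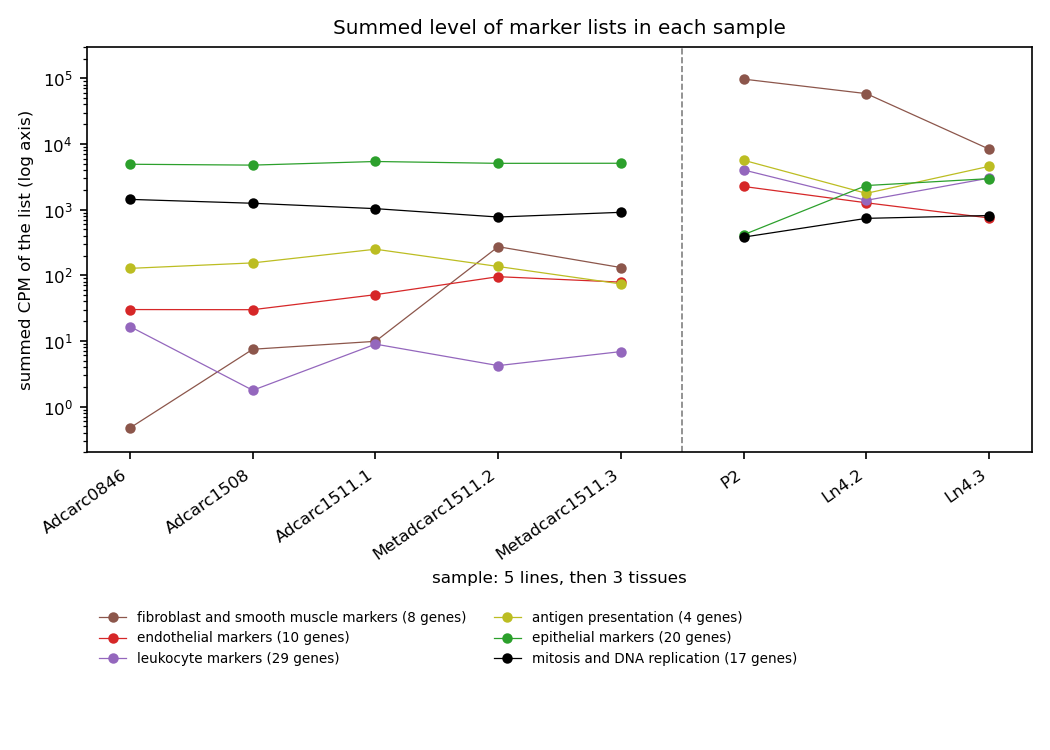
Summed CPM of 6 gene lists in each sample on a log axis, with the 5 lines to the left of the dashed line and the 3 tissues to its right; each point is 1 sample and a thin line joins samples of a type only to guide the eye. Fibroblast, endothelial, leukocyte and antigen presentation genes lie above all lines in every tissue, and epithelial genes lie below all lines in every tissue, lowest in P2.

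Antigen presentation genes with an identifier were lower as well, in 3 of 4 members (75%, against 13.3% of all tested genes). CD74, the chain that escorts class II molecules, was at 1.47, 13.4, 0.0209, 2.4 and 0.094 CPM in the lines and 1566, 606 and 1804 CPM in the tissues (log2 fold change -10.36 ± 1.70 SE, adjusted p = 0.00581; 0.0173 without Ln4.2). The class II chain DLA-DRA had 2, 74, 0, 1 and 0 counts in the lines and 18164, 8200 and 24892 in the tissues (log2 fold change -15.95 ± 0.93 SE, adjusted p = 0.000297). Adcarc1508 was the line with most of both, yet remained well below every tissue.

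Among class I genes, DLA-79 had 1 count over the lines and 2437, 400 and 1036 in the tissues, 24500-fold lower, with a 95% counting interval from 4390 to 966000 (adjusted p = 0.00284). DLA-12 was at 126, 139.7, 249, 134 and 73.6 CPM in the lines, each below every tissue, at 2486, 538 and 982 CPM (log2 fold change -2.89 ± 0.62 SE, adjusted p = 0.0154), and was not called. It was called lower by DESeq2, by limma and without the dog in the model. These class I genes are members of a family with similar sequences, between which the authors' counting could split reads, so their levels are uncertain.

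Of 11 interferon and JAK-STAT genes, 3 were called lower (27.3%, against 13.3% of all tested genes) and 0 higher (median -0.67). OSMR, the receptor of oncostatin M, was at 162, 129, 30.6, 85.1 and 39.6 CPM in the lines and 586, 571 and 379 CPM in the tissues (log2 fold change -2.82 ± 0.48 SE, adjusted p = 0.0067; 0.0259 without Ln4.2). STAT3, the transcription factor that acts below it, was at 153, 124, 54.5, 69.4 and 79.4 CPM against 455, 277 and 223 CPM (log2 fold change -1.79 ± 0.22 SE, adjusted p = 0.00188; 0.0116 without Ln4.2). APOBEC3Z3, a cytidine deaminase that restricts viruses, had 1 count over the lines and 90, 48 and 118 in the tissues, 1570-fold lower, with a 95% counting interval from 282 to 62000 (adjusted p = 0.00549, and 0.0235 without Ln4.2). All lines were below all tissues for these genes.

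**Figure D3:**
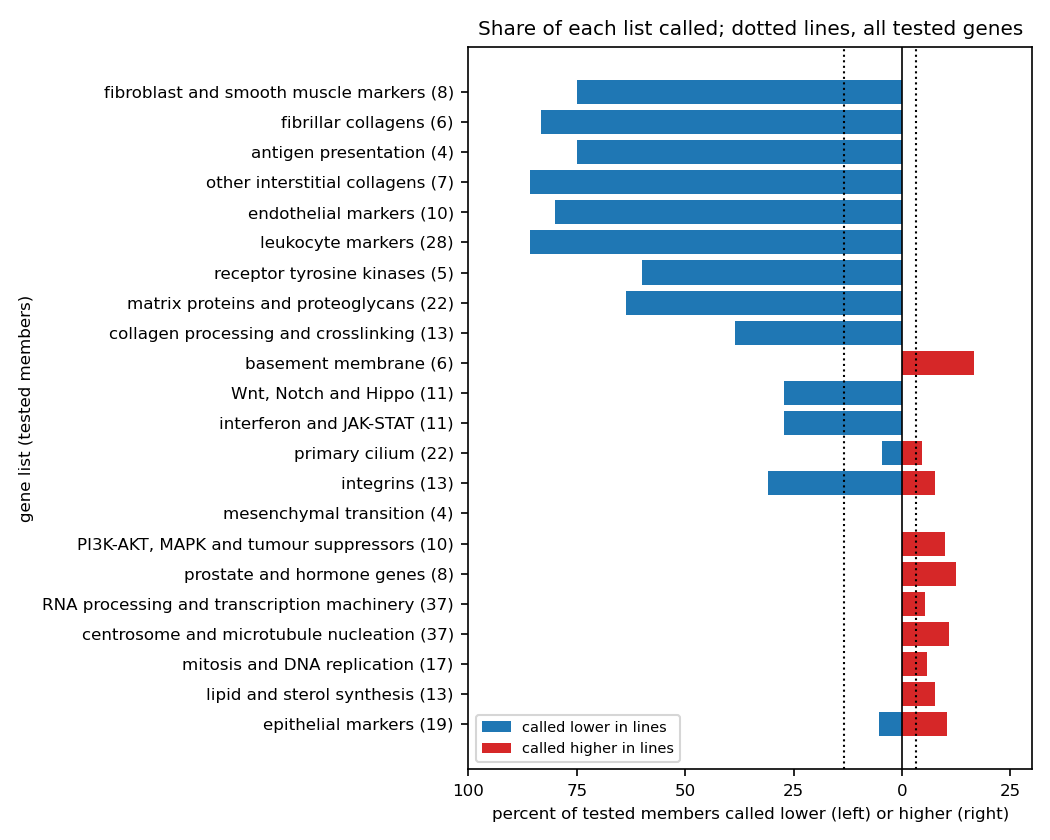
Percent of the tested members of each gene list that were called lower (blue, left) or higher (red, right) in the lines, for the 22 lists with at least 4 tested members, ordered by their median log2 fold change; the number of tested members is in parentheses. The dotted lines mark the shares over all 14299 tested genes, 13.3% lower and 3.2% higher, and the lists of collagens, matrix proteins, fibroblast, endothelial and leukocyte markers and antigen presentation exceed the former, at 63.6% or more, as do receptor tyrosine kinases (60%), collagen processing (38.5%), integrins (30.8%), and the interferon and Wnt lists (27.3% each).

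Epithelial genes mostly had higher levels in the lines, although few were called. The summed level of 20 epithelial markers was 4910, 4764, 5408, 5070 and 5085 CPM in the lines and 415, 2328 and 2963 CPM in the tissues. Of 19 tested members 2 were called higher (10.5%, against 3.2% of all tested genes) and 1 lower (5.26%, against 13.3%), with a median of 1.65. All lines were above all tissues for 10 of them, against 17.8% of all tested genes. LAD1, an anchoring filament protein of epithelial basement membrane, was at 328, 312, 381, 264 and 312 CPM in the lines and 9.48, 51.6 and 65.5 CPM in the tissues (log2 fold change 3.14 ± 0.59 SE, adjusted p = 0.00988; 0.0395 without Ln4.2). HOOK1, a microtubule-linked adaptor, was at 21.3, 11.2, 16.9, 25.6 and 25.3 CPM against 3.34, 7.71 and 6.85 CPM (log2 fold change 1.93 ± 0.33 SE, adjusted p = 0.00648; 0.0249 without Metadcarc1511.2). The lines were alike in the level of LAD1, while the tissues differed among themselves, with P2 below both metastases.

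KRT80, an epithelial keratin, was at 785, 1000, 782, 1257 and 1415 CPM in the lines and 1.32, 128 and 225 CPM in the tissues, and JUP, the plakoglobin of desmosomes, at 504, 663, 381, 525 and 519.5 CPM and 105, 246 and 282 CPM. Neither was called (3.81 ± 1.31, adjusted p = 0.0669, and 1.25 ± 0.34, adjusted p = 0.0339), although KRT80 was called without P2 (2.71, adjusted p = 0.00609) or Adcarc0846 (2.70, adjusted p = 0.00702), and both by DESeq2. The exception among epithelial genes was TGM1, the transglutaminase of the cornified envelope, at 0.423, 0.893, 0.481, 0.747 and 0.432 CPM in the lines and 1.86, 50.2 and 67.8 CPM in the tissues (log2 fold change -5.74 ± 1.01 SE, adjusted p = 0.0074; 0.0342 without Metadcarc1511.2). TGM1 was high in both metastases and low in P2, and its log2 ratio of line to tissue was -2.14 in dog 2 and -6.76 in dog 4. P2 had the lowest sum of epithelial markers and the highest sums of fibroblast, endothelial and leukocyte markers among the tissues, and the part of these sums in the values of other genes was not tested.

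Integrins fix cells to their matrix, and their members differed in direction. Of 13 tested integrins, 1 was called higher (7.69%, against 3.2% of all tested genes) and 4 lower (30.8%, against 13.3%), with a median of -0.26. ITGA3, a laminin receptor of epithelial cells, was at 1369, 795, 1012, 1474 and 1286 CPM in the lines and 103, 189 and 276 CPM in the tissues (log2 fold change 2.80 ± 0.38 SE, adjusted p = 0.00279; 0.0189 without Ln4.2). ITGA2, a collagen receptor also found on epithelia, was at 978, 319.8, 1167, 755 and 402 CPM in the lines and 10.5, 189 and 163 CPM in the tissues, without being called (3.11 ± 0.99, adjusted p = 0.0532). The fibronectin receptor ITGA5 was at 14.7, 5.42, 4.27, 4.52 and 26 CPM in the lines and 1095, 546 and 196 CPM in the tissues (log2 fold change -5.36 ± 0.90 SE, adjusted p = 0.00636; 0.0298 without Ln4.2).

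The leukocyte integrin chains ITGA4 and ITGAX were near 0 in the lines, whereas ITGB2, given with the leukocyte markers, reached 15.4 CPM in Adcarc0846. ITGA4, which lets leukocytes leave vessels, had 2, 13, 31, 2 and 2 counts in the lines and 2836, 760 and 1611 in the tissues (log2 fold change -9.18 ± 1.32 SE, adjusted p = 0.00363; 0.0138 without Metadcarc1511.2). ITGAX, of dendritic cells and macrophages, had 1 count over the lines and 743, 498 and 1974 in the tissues, 19400-fold lower, with a 95% counting interval from 3480 to 765000 (adjusted p = 0.000405, and 0.0102 without Metadcarc1511.2). ITGB1, the partner of most of these chains, was at 911, 928, 1178, 1093 and 903 CPM in the lines and 1131, 586 and 461 CPM in the tissues (log2 fold change 0.63 ± 0.34 SE, adjusted p = 0.199). Its groups overlapped.

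None of 4 tested mesenchymal transition genes was called (0 higher and 0 lower, median -0.24). The receptor TGFBR1 was at 301, 82.6, 353, 384 and 296 CPM in the lines and 222, 170.0 and 155 CPM in the tissues (log2 fold change 0.89 ± 0.23 SE, adjusted p = 0.0271). SMAD3, which carries its signal to the nucleus, was at 227, 150.2, 59.3, 93.9 and 149.9 CPM and 46.9, 74.3 and 52.6 CPM (log2 fold change 1.12 ± 0.46 SE, adjusted p = 0.109). SNAI2, a transcription factor of that program, ranged between 32 and 2453 counts among the lines and between 188 and 1016 among the tissues, and it was chosen after its values were seen.

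Several members of a list of prostate and hormone genes were at or near 0 counts in both types of sample. Of the 20 genes of this list, 8 had enough counts to be tested, 1 was called higher (12.5%, against 3.2% of all tested genes) and 0 lower. The oestrogen receptor ESR1 was near 0 in the lines only, with 2, 9, 0, 3 and 1 counts in the lines and 245, 224 and 5 in the tissues. It did not reach 10 counts in all tissues, because Ln4.3 held 5, and so it was not tested. KLK2, the kallikrein of prostatic fluid, and the trypsin inhibitor SPINK1 had 0 counts in all 8 samples, which allows up to 0.0747 CPM in a line and 0.233 CPM in a tissue for counting error alone. TP63, the marker of basal cells, had at most 2 counts in a line and at most 10 in a tissue.

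The homeobox gene HOXB13, a transcription factor of the prostate, had 36, 3308, 512, 620 and 1156 counts in the lines and 0, 37 and 51 in the tissues (log2 fold change 2.61 ± 0.60 SE, adjusted p = 0.019). Adcarc1508 held most of it, and the pair of dog 2 held least, with none in P2. The called gene was GOLM1, a Golgi protein raised in prostate tumours, at 229, 24.3, 328, 337 and 169.6 CPM in the lines and 61.7, 80.2 and 98 CPM in the tissues (log2 fold change 1.72 ± 0.31 SE, adjusted p = 0.00753; 0.042 without Ln4.2). Adcarc1508, which does not inform this fold change, held less GOLM1 than every tissue, and the call was lost when the dog was left out of the model.

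FOLH1, the prostate-specific membrane antigen, had 262, 245, 7915, 374 and 6 counts in the lines and 548, 867 and 50 in the tissues (log2 fold change -0.14 ± 2.27 SE, adjusted p = 0.968). It was high in Adcarc1511.1 and almost silent in Metadcarc1511.3 from the same dog, and its sign depended on the model. PSCA, a stem cell antigen of the prostate, had 19, 36, 12, 57 and 29 counts in the lines and 0, 592 and 943 in the tissues (log2 fold change -5.21 ± 1.93 SE, adjusted p = 0.082). PSCA was abundant in the metastases of dog 4 and was not counted in P2, and no line reached the level of the metastases. It was called by DESeq2 and without either sample of dog 2, at a log2 fold change of -6.38 without P2 and -6.40 without Adcarc0846 (adjusted p = 0.00241 and 0.00255).

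Fatty acid synthase FASN was at 1333, 881, 687, 907 and 820.4 CPM in the lines and 175, 786 and 515 CPM in the tissues (log2 fold change 0.99 ± 0.56 SE, adjusted p = 0.212), with P2 the lowest sample. GSTP1, a glutathione transferase that is often silenced in human prostate carcinoma, was at 36, 79.4, 31.8, 17.1 and 41.4 CPM in the lines and 70.4, 65.2 and 86.6 CPM in the tissues (log2 fold change -1.23 ± 0.33 SE, adjusted p = 0.0301). The mitotic kinase AURKA was at 76, 32.3, 39.8, 32.6 and 45.3 CPM in the lines and 9.4, 27 and 29.2 CPM in the tissues (log2 fold change 1.14 ± 0.52 SE, adjusted p = 0.135). None of these genes was called. ESR2, PGR, HSD3B2, HNF4G and AMACR, further members of the list, had at most 86 counts in any sample and were not tested.

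**Figure D4:**
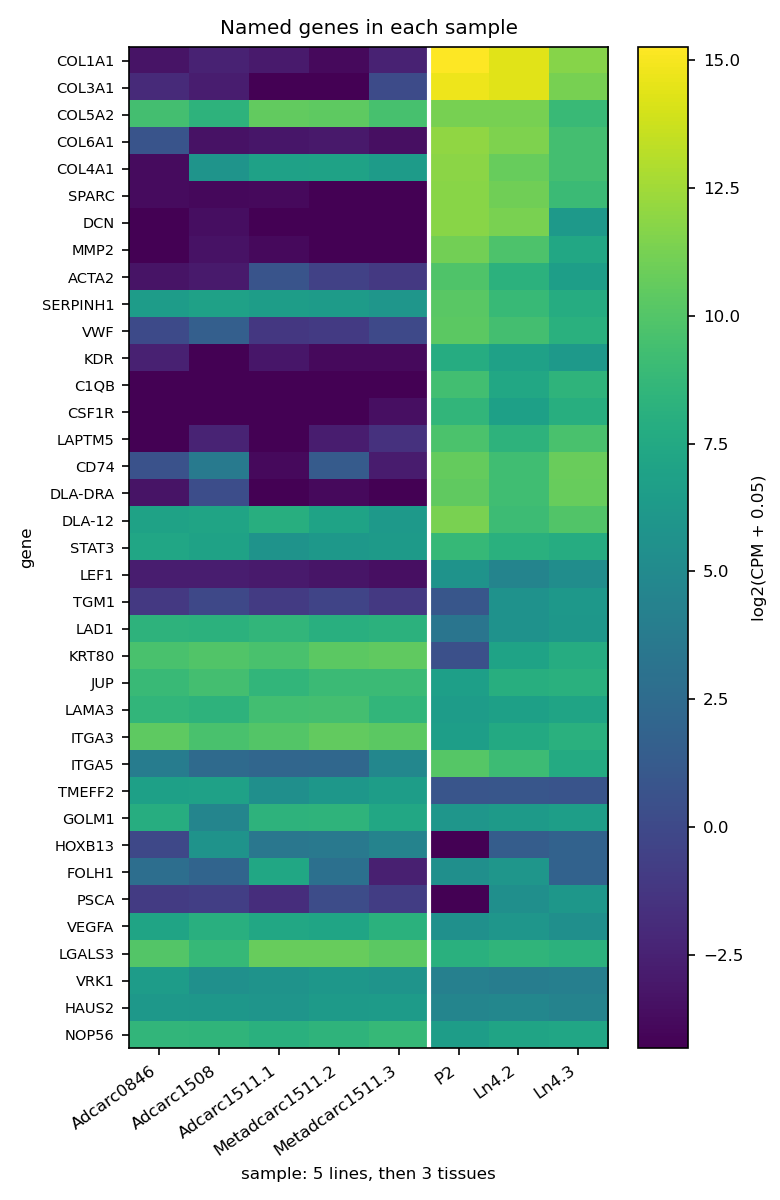
Levels of 37 named genes in the 5 lines (left) and the 3 tissues (right) as log2(CPM + 0.05), from dark (low) to bright (high). The collagen, vessel and leukocyte genes in the upper part are dark in the lines and bright in the tissues, COL5A2 and DLA-12 are bright in both, and FOLH1 and COL4A1 differ among the lines.

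The largest fold change among genes with a symbol that were called higher was that of TMEFF2, a transmembrane protein with follistatin-like domains that is expressed in brain and prostate. It was at 109, 116, 43.5, 65.2 and 95.2 CPM in the lines and 1.71, 1.82 and 1.64 CPM in the tissues (log2 fold change 5.50 ± 0.40 SE, adjusted p = 0.000431), and each line was far above each tissue. The adaptor SH2D5 followed, at 8.62, 1.57, 14.8, 27.3 and 20.4 CPM and 0.0777, 0.582 and 0.548 CPM (log2 fold change 5.48 ± 0.48 SE, adjusted p = 0.000633), with Adcarc1508 the lowest line. LGALS3, the carbohydrate-binding galectin-3, had the highest mean CPM in the lines among called genes with a symbol that were higher, at 1054, 446, 1632, 1671 and 1294 CPM against 269, 353 and 302 CPM (log2 fold change 2.15 ± 0.23 SE, adjusted p = 0.00125). Its call was lost without Ln4.2, where its adjusted p was just above 0.01.

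Other genes with large fold changes had various roles. SYTL2, which tethers secretory vesicles, was at 83.7, 160.5, 318, 276 and 249.9 CPM in the lines and 18.6, 38.6 and 46.1 CPM in the tissues (log2 fold change 2.57 ± 0.23 SE, adjusted p = 0.000665). CNNM4, a magnesium transporter, was at 23.5, 43.7, 70.5, 86.1 and 103 CPM against 10.9, 14 and 11.9 CPM (log2 fold change 2.27 ± 0.39 SE, adjusted p = 0.00709; 0.0444 without Ln4.2). PAX9, a transcription factor of pharyngeal development, had a fold change of 2.33 ± 0.31 (adjusted p = 0.00253; 0.015 without Ln4.2) although the lines and tissues overlapped. PAX9 was at 2.09, 6.28, 27, 24.3 and 31.4 CPM in the lines and 0.233, 6.4 and 6.31 CPM in the tissues, so that Adcarc0846 and Adcarc1508 were below both metastases and the lines of dog 4 above them. ANKRD13B, an endosomal protein, was at 25.7, 16, 13, 5.92 and 9.32 CPM against 2.64, 2.69 and 1.78 CPM (log2 fold change 2.42 ± 0.46 SE, adjusted p = 0.00919; 0.0335 without Ln4.3). At the other end, TMEM176A, a channel-like protein of myeloid cells, had 0 counts in every line and 1530, 1184 and 1008 in the tissues, which put the lines at least 1220-fold lower when set to 3 counts per sample (adjusted p = 0.000713).

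Of 17 mitosis and DNA replication genes 1 was called higher (5.88%, against 3.2% of all tested genes) and 0 lower (median 0.85), and all lines were above all tissues for 8 of them, against 17.8% of all tested genes. Their sum was 1432, 1250, 1035, 771 and 909.7 CPM in the lines and 381, 736 and 813 CPM in the tissues. The called gene was VRK1, a chromatin kinase of proliferating cells, at 91.4, 46.6, 53.5, 66 and 57 CPM against 17.9, 15.8 and 17.9 CPM (log2 fold change 1.96 ± 0.21 SE, adjusted p = 0.00115). TPX2, which organises the spindle, was at 188, 229.6, 142, 101 and 178 CPM and 25.1, 84.1 and 85.5 CPM (log2 fold change 1.31 ± 0.48 SE, adjusted p = 0.0785). For TPX2 and for the sum, the metastases were closer to the lines than P2 was.

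Of 37 centrosome genes, 4 were called higher (10.8%, against 3.2% of all tested genes) and 0 lower (median 0.56). MZT1, a small subunit of the γ-tubulin ring complex, was at 111, 40.2, 139, 130.0 and 143 CPM in the lines and 41.9, 40.3 and 26.3 CPM in the tissues (log2 fold change 1.86 ± 0.25 SE, adjusted p = 0.00259; 0.0147 without Ln4.2), and Adcarc1508 overlapped with the tissues. HAUS2 and HAUS5, subunits of the augmin complex that branches spindle microtubules, had fold changes of 1.61 ± 0.21 and 1.22 ± 0.21 (adjusted p = 0.00261 and 0.00613; 0.0142 and 0.0304 without Ln4.2). HAUS2 was at 68.9, 67.3, 60.0, 80.5 and 86.7 CPM in the lines and 23.5, 27.1 and 21.7 CPM in the tissues. CEP135, which builds the centriole, was at 68.5, 52.7, 58.4, 66.8 and 63.4 CPM against 19.6, 26.2 and 28.8 CPM (log2 fold change 1.37 ± 0.20 SE, adjusted p = 0.0037; 0.0227 without Ln4.2). Every line was above every tissue for HAUS2, HAUS5 and CEP135.

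Of 22 genes of the primary cilium, the antenna that most resting cells carry, 1 was called higher and 1 lower (median -0.32). Each is 4.55% of the list, against 3.2% higher and 13.3% lower of all tested genes. BBS10, a chaperonin-like protein, was at 24.7, 19.7, 29.3, 32.5 and 28.3 CPM in the lines and 8.62, 10.2 and 10.3 CPM in the tissues (log2 fold change 1.54 ± 0.20 SE, adjusted p = 0.00224; 0.017 without Ln4.2). TCTN1, of the transition zone at the base of the cilium, was at 2.72, 7.84, 4.12, 3.79 and 4.4 CPM against 26.8, 14.8 and 12.7 CPM (log2 fold change -2.20 ± 0.38 SE, adjusted p = 0.00696; 0.0301 without Ln4.2). Every line was above every tissue for BBS10 and below every tissue for TCTN1.

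In RNA processing and transcription, 2 of 37 identifiers were called higher (5.41%, against 3.2% of all tested genes) and 0 lower (median 0.52), and all lines were above all tissues for 16 of them, against 17.8% of all tested genes. NOP56, which guides methylation of ribosomal RNA, was at 385, 361, 275, 346 and 449 CPM in the lines and 96, 135 and 155 CPM in the tissues (log2 fold change 1.5 ± 0.28 SE, adjusted p = 0.00847; 0.042 without Ln4.2). CSTF2, a factor of 3′ end cleavage, was at 43.2, 48.9, 52.2, 41.7 and 40.1 CPM against 15.7, 18.5 and 20.8 CPM (log2 fold change 1.26 ± 0.20 SE, adjusted p = 0.00475; 0.0289 without Ln4.2). The splicing factor HNRNPM was at 516, 568, 477, 358 and 379 CPM and 276, 296 and 352 CPM (log2 fold change 0.49 ± 0.23 SE, adjusted p = 0.152). For these 3 genes every line was above every tissue, and HNRNPM was not called.

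Of 13 lipid and sterol synthesis genes 1 was called higher (7.69%, against 3.2% of all tested genes) and 0 lower (median 0.99). SELENOI, which makes phosphatidylethanolamine, was at 63.8, 40.9, 54.8, 55 and 64.2 CPM in the lines and 11.7, 20.4 and 13.6 CPM in the tissues (log2 fold change 1.96 ± 0.25 SE, adjusted p = 0.0024; 0.0117 without Ln4.3). ACSL3, which activates fatty acids, was at 460.5, 211, 382, 256 and 248 CPM and 73.4, 120.0 and 157 CPM and was not called (1.53 ± 0.39, adjusted p = 0.0259).

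For hypoxia and glycolysis only 3 of 22 genes had an identifier, and 1 was called higher (33.3%, against 3.2% of all tested genes). VEGFA, the growth factor of vessels, was at 139, 265, 174, 145 and 287 CPM in the lines and 45.6, 63.6 and 42.4 CPM in the tissues (log2 fold change 1.83 ± 0.33 SE, adjusted p = 0.0074; 0.03 without Ln4.2). Its receptor KDR was called lower, as described with the endothelial markers. ERO1A, an oxidase of the endoplasmic reticulum that responds to hypoxia, was at 242, 230.0, 881, 1286 and 829 CPM and 115, 151 and 115 CPM (log2 fold change 2.37 ± 0.47 SE, adjusted p = 0.0112). It was called without P2 or Adcarc0846, at 2.91 and 2.90 (adjusted p = 0.00233 and 0.00261), by DESeq2 and with library sizes alone. PFKL, the liver form of phosphofructokinase, was at 82.4, 208, 345, 296 and 223 CPM and 97, 400.3 and 463 CPM (log2 fold change -0.48 ± 0.23 SE, adjusted p = 0.151).

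The receptor tyrosine kinases that were called lower were CSF1R, KDR and TEK, the receptors of macrophages and vessels described above. They are 3 of 5 tested members (60%, against 13.3% of all tested genes). The list names 24 receptors, of which only these 5 had an identifier, so 60% is not a share of the whole family. The epidermal growth factor receptor EGFR was at 64.5, 74.2, 45.4, 57.6 and 53.9 CPM in the lines and 47.8, 67.4 and 70.0 CPM in the tissues (log2 fold change -0.16 ± 0.22 SE, adjusted p = 0.613). In PI3K-AKT, MAPK and tumour suppressor genes, 1 of 10 was called higher (10%, against 3.2% of all tested genes) and 0 lower (median 0.33). This was CDKN1A, the cell cycle inhibitor p21, at 114, 162, 152, 187 and 200.4 CPM against 45, 88.4 and 98.7 CPM (log2 fold change 1.06 ± 0.20 SE, adjusted p = 0.00919; 0.0492 without Ln4.2). CCND1, a cyclin that drives entry into the cycle, was at 119, 163, 174, 221 and 221 CPM and 16.6, 74.1 and 124 CPM (log2 fold change 1.54 ± 0.42 SE, adjusted p = 0.0333).

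Of 11 Wnt, Notch and Hippo genes, 3 were called lower (27.3%, against 13.3% of all tested genes) and 0 higher (median -0.72). LEF1, a nuclear effector of Wnt signals that lymphocytes also express, had 4, 6, 4, 3 and 2 counts in the lines and 688, 308 and 567 in the tissues (log2 fold change -8.95 ± 0.42 SE, adjusted p = 0.000215). TCF7, a related factor of T cells, was at 1.42, 4.12, 1.53, 4.03 and 3.14 CPM against 28, 16.2 and 27.8 CPM (log2 fold change -3.32 ± 0.51 SE, adjusted p = 0.00431; 0.021 without Ln4.3). The secreted Wnt agonist RSPO2 had 2, 30, 1, 1 and 0 counts against 23, 15 and 36 (log2 fold change -6.18 ± 0.70 SE, adjusted p = 0.00145). YAP1, the effector of the Hippo pathway, was at 236, 257, 217, 295 and 321 CPM and 183, 133 and 94.1 CPM (log2 fold change 1.02 ± 0.30 SE, adjusted p = 0.0422). LEF1 and TCF7 moved with the leukocyte sum, at 4022, 1385 and 3018 CPM in the tissues and at most 16.5 CPM in a line, and its part in their change was not tested.

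Among transcripts of high level, several did not pass the threshold although the groups did not overlap. ACTN1, an actin crosslinker at adhesion sites, was at 758, 787, 3952, 2751 and 2412 CPM in the lines and 366, 382 and 373 CPM in the tissues (log2 fold change 2.44 ± 0.50 SE, adjusted p = 0.0122), with the lines of dog 4 above the other two. ACTN1 was called without P2 or Adcarc0846, at 3.01 and 3.00 (adjusted p = 0.00197 and 0.00228), by DESeq2, by limma and with library sizes alone. The chaperone HSP90AA1 was at 4176, 3340, 2695, 4391 and 4073 CPM and 821, 1965 and 2287 CPM (log2 fold change 1.24 ± 0.40 SE, adjusted p = 0.0541). SLC29A1, a nucleoside transporter, was at 3261, 3421, 3140, 2512 and 2176 CPM and 913, 1472 and 1607 CPM (log2 fold change 1.07 ± 0.31 SE, adjusted p = 0.0411). For these genes every line was above every tissue. The helicase EIF4A1 had a fold change of 0.92 ± 0.28 (adjusted p = 0.0436), and the ATP synthase subunit ATP5B one of 0.93 ± 0.34 (adjusted p = 0.0796). RPL8, a ribosomal protein, was at 3216, 2983, 4023, 3875 and 3592 CPM and 1037, 3200 and 4204 CPM (log2 fold change 0.49 ± 0.37 SE, adjusted p = 0.34), and only P2 stood below the other samples.

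The direction of the called genes was also read within each dog. Of the 1906 genes called lower, 1892 were at least 2-fold lower in Adcarc0846 than in P2 (99.3%, against 32.2% of all tested genes) and 1901 were at least 2-fold lower in the mean of the dog 4 lines than in the mean of their metastases. For the 457 genes called higher, 424 were at least 2-fold higher in dog 2 (92.8%, against 22.5%) and 437 in dog 4. The calls were made on the same samples, so these counts are a description. For dog 4 no share over all tested genes is given, so the size of that agreement cannot be judged. Adcarc1508 did not enter the fold changes and gives a value of its own. It was at least 2-fold below the mean of the tissues for 1818 of the genes called lower (95.4%, against 27.4% of all tested genes) and at least 2-fold above it for 318 of the genes called higher (69.6%, against 14.7%). The tissues of this comparison are those that entered the calls.

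**Figure D5:**
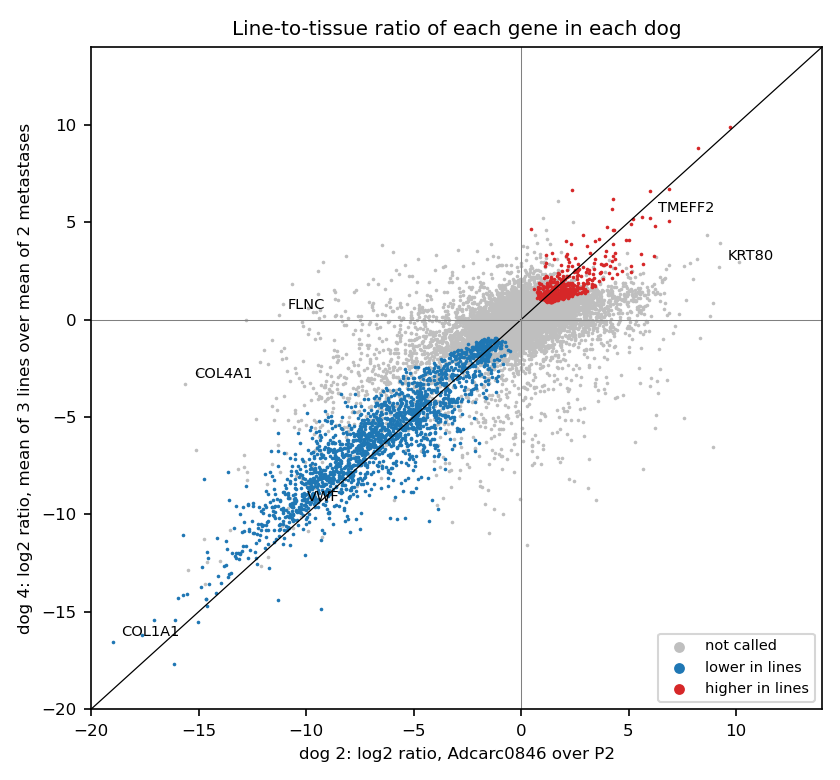
Log2 ratio of line to tissue for each of the 14299 tested genes in dog 2 (x axis, Adcarc0846 over P2) and dog 4 (y axis, mean of 3 lines over mean of 2 metastases), with values under 3 counts set to 3 counts, genes called lower in blue, called higher in red and the rest in grey; the diagonal marks equal ratios. Most called genes lie near the diagonal, while COL4A1 and FLNC had far more negative ratios in dog 2 than in dog 4.

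A test of the difference itself, whether the line effect in dog 4 differed from that in dog 2, called 2 of 14299 genes (0.014%) by edgeR. At an unadjusted p under 0.05 the number was 3267, and DESeq2 called 1678. The lone samples of dog 2 were assumed to vary like those of dog 4, and no gene was called by edgeR when any one sample of dog 4 was left out (0 in each case). Both called genes, ENSCAFG00000005887 and ENSCAFG00000017943, carry no symbol in the sources used here. The former had 0, 1173, 12176, 13875 and 12803 counts in the lines and 570, 410 and 527 in the tissues, and the latter had 0, 60, 15782, 16076 and 12715 and 6975, 4106 and 4303. Both were silent in Adcarc0846 and present in P2 from the same dog, and Adcarc1508 held less of them than the lines of dog 4.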

How the data were processed

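RNA of 5 PAC lines and 3 PAC tissues was sequenced as single reads. Per the methods of the study, reads were trimmed with Trimmomatic 0.36, aligned to CanFam3.1 (Ensembl annotation 94) with STAR 2.5.3 and quantified with RSEM 1.3.0. The authors deposited expected counts and TPM per gene and lane, and 17.7% of the expected counts above 0 were not whole numbers. Lane totals were 3436163 to 5039762. The deposited TPM were averaged over the lanes and libraries of a sample. Expected counts were summed over lanes and libraries (68 of 124 lane files) and rounded to whole numbers. Samples were grouped by their labels. The lanes of a library of Adcarc0846 whose other labels count upward were assigned by title.

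The dog as a block, which pairs samples of 1 animal, the pooling and the thresholds follow the study's methods for primary tumours. Its separate fit for the metastases, which blocked by replicate, was not used, and its minimum of 10 counts was applied here before p-values were adjusted. Its limit to protein-coding genes was not applied, and primary and metastatic samples entered 1 fit. The fit used edgeR 4.0.16 (TMM factors, quasi-likelihood F test, robust) in R 4.3.3, with limma 3.58.1 and DESeq2 1.42.0 for alternatives. In simulated data, 200 genes were changed 4-fold. The fit called 100%, 95% and 1.5% of them at a coefficient of variation between samples of 0.1, 0.3 and 0.6. False calls numbered 0, 2 and 0. The common dispersion of the main fit, the square of that coefficient, was 0.23. A gene with a wide spread could thus change 4-fold without being called. CPM use TMM factors. SE were derived from the fold change and F statistic. A group with no counts is given against a floor of 3 counts per summed sample, at most 0.0747 CPM in a line and 0.233 CPM in a tissue. With 1 to 3 counts, the ratio has an exact Poisson interval. Both cover counting error only. Whether the libraries of a line came from separate cultures was not used, as they were summed.

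Symbols were taken from the study's marker table, figure legends and a supplementary table, which name 1120 of 32183 identifiers. The reference table held 0 of these identifiers. Among the tested genes, 1050 had a symbol, of which 179 (17%) were called lower and 33 (3.14%) higher. The study's supplementary tables list genes drawn from its own expression data, so genes with a symbol are not a random sample. Members and lists were chosen with earlier results of these data known. The share of a list, set beside the share of all tested genes, is therefore a description. Of 24 lists, the urothelial list had 0 of 8 members with an identifier. Others were covered in part, such as endothelial markers (10 of 20), basement membrane (6 of 16) and mesenchymal transition (4 of 15). The shares given are those of tested members. Genes were named from up to 4 called and 2 other members of each list by mean CPM, the 10 largest changes in each direction at 10 CPM or more, the 10 highest levels in each group, and the prostate and hormone list. SNAI2, ODAPH and the genes silent in 1 line were chosen after their values were seen. Some genes that this rule names are not reported here.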

Additional observations from a re-analysis of the deposited data

Results flagged for a closer look

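Among 88 sets of values of the 5 lines (the named genes that reach 10 CPM in a line, and the sums of the lists), 6 had 1 line far from the other 4 by Dixon's test. Chance gives about 1 in 20 for independent, normally distributed values. The lines of dog 4 share an animal and the sums contain named genes, so that rate is only a rough guide here. Metadcarc1511.2 was the highest line for COL10A1, at 52.7 CPM, and therefore for the sum of the other interstitial collagens, at 53.5 CPM. Adcarc0846 was the highest line for P4HB, at 1589 CPM, where the others held 1065 to 1177 CPM, and for the leukocyte integrin ITGB2, at 15.4 CPM. Adcarc1508 was the highest for CD74, at 13.4 CPM. Adcarc1511.1 was the highest for FOLH1, at 166 CPM.

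The difference between lines and tissues was not the same in both dogs for 2 genes by edgeR's test, which rests on 1 line and 1 tissue of dog 2 and called 0 genes when any one sample of dog 4 was left out. The line-to-tissue difference in dog 4 exceeded that in dog 2 by 16.63 for ENSCAFG00000005887 (adjusted p = 0.0071) and by 17.28 for ENSCAFG00000017943 (adjusted p = 0.00769) on the log2 scale. As Adcarc0846 had 0 counts of both, these sizes depend on the prior count of the fit and are not bounds.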

How the results depend on the processing

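None of the 62 called genes given here with a p-value changed its direction in any alternative. Of the 62, DESeq2, no filter beyond 1 count and filterByExpr kept all, TMM replaced by DESeq2's size factors or by library size alone kept 59 each, a fit without the block for the dog kept 55, and limma with the dog as a random effect kept 53. The first library of each line alone kept 47, and sums per dog and type kept 27. The sums were fitted without the dog, so Adcarc1508 informed their fold changes. Of 38 uncalled genes followed in the same way, DESeq2 called 18. ODAPH and the genes named without a p-value, among them TYROBP, SPI1, TREM2, ALOX5AP and GIMAP1, were not followed.

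The main count of 2363 calls became 4280 with DESeq2 (1320 higher, 2960 lower), 4162 at an adjusted p of at most 0.05 (1304 higher) and 1084 with sums per dog and type (15 higher, 1069 lower). Genes called higher were 241 with the first library of each line. Without the replicate block for the dog the count was 2587, of which 2030 genes were also called with it. In the split of calls, 80.7% were lower in the main fit, 69.2% with DESeq2, 68.7% at the wider threshold and 98.6% with sums per dog and type. Leaving out 1 sample at a time gave 1139 to 2536 calls (49 to 488 higher, 1090 to 2048 lower), lowest without Ln4.2. Alternatives added after seeing the data gave 2475 for the samples of dog 4 alone and 2464 without the first libraries of the metastasis lines. The difference between dogs was called for 1678 genes with DESeq2, 112 without the filter and 0 to 0 when a sample of dog 4 was left out. The cause of these shifts was not tested.

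Some uncalled genes changed sign. FOLH1 was at 0.01 without the block, 0.49 with first libraries, 0.80 in dog 4 alone and -3.01 to 0.91 when 1 sample was left out. EGFR was at 0.14 in sums per dog and type. FLNC was at 0.55 with first libraries, 0.87 in dog 4 alone and -4.54 to 0.88 when 1 sample was left out. GJA5 was at 0.51 in dog 4 alone and -3.92 to 0.52 when 1 sample was left out. Both were positive without Adcarc0846 or P2.

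The depth of the tissues limits genes at low levels: 3 counts are up to 0.233 CPM in a tissue and 0.0747 CPM in a line. With 1 dog behind most of the residual spread, the p-values do not measure the variation between patients.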

Other observations

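Some genes were silent in 1 line only. Adcarc0846 had at most 3 counts of 64 genes that had at least 100 counts in each of the other 4 lines, and for 41 of these all 3 tissues also had at least 100 counts. The same number was 19 (13 with all tissues) for Adcarc1508, 6 (1) for Adcarc1511.1, 2 (1) for Metadcarc1511.2 and 1 (1) for Metadcarc1511.3. Those of Adcarc0846 with a symbol were A2M, ARMCX3, COL4A1, FAM171A1, FAM83A, FES, FLNC and MREG. Adcarc0846 was also the line at the highest passage and with the fewest counts, and their part was not tested. Genes with at least 100 counts in 1 line and at most 3 in each of the others numbered 29 in Adcarc0846, among them IRX2 and NECTIN3, and 26 in Adcarc1508, among them GABRA3, GUCY1A1 and PTGS1. Among the tissues, P2 had at most 3 counts of 36 genes that both metastases held at 100 or more, among them EGF, IL22RA1 and PSCA.

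Of the 42 genes with at least 10 counts in every line and at most 3 in every tissue, 1 had a symbol. ODAPH, which is known for its role in dental enamel, had 31, 131, 222, 2005 and 884 counts in the lines and 0, 0 and 0 in the tissues, and it was not called (adjusted p = 0.015).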
